A study of Mus musculus with 2 samples.

Results

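The IGF2 mRNA-binding proteins (*Igf2bp1*, *Igf2bp2*, *Igf2bp3*), the LIN28 proteins (*Lin28a*, *Lin28b*) and the HMGA proteins (*Hmga1*, *Hmga2*) are described here in mouse liver. The 7 genes were taken by symbol from the 21878 symbols listed. Messenger RNA of FVB/N mouse liver was profiled by polyA RNA sequencing, with 1 library labelled as having no treatment (untreated) and 1 library labelled TSA. Both libraries come from animals that received c-Myc through hydrodynamic injection, in which a large volume is pushed into the tail vein so that hepatocytes take up DNA, so there is no liver without c-Myc to compare with. The labels give neither the age of the mice nor the dose or duration of TSA, nor do they say if whole liver or tumour was taken, or if 1 animal or several gave the RNA. With 1 library per group there is no replicate check and no test across conditions, and every interval in parentheses is a 95% interval that covers counting error only.

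Most of these genes are known for high activity in embryos and fetal liver, for low activity in the adult liver, and for renewed activity in liver cancer. LIN28 proteins bind precursors of the let-7 microRNAs and block their maturation, and let-7 in turn represses the mRNAs of LIN28, IGF2BP and HMGA proteins. IGF2BP proteins bind mRNAs, that of *Igf2* among them, and control their stability, transport and translation, while HMGA proteins bind AT-rich DNA and bend chromatin.

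A sequence feature that the choice of genes did not use directly is the let-7 site, shown here because it links all 7 genes. The RefSeq table (GRCm38.p6) holds 9 mature let-7 family sequences of the 5′ arm, miR-98 included, and all share 1 seed, bases 2 to 8. An example of the family is given with its seed in capitals.

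mmu-let-7a-5p: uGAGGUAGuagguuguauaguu

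mmu-let-7g-5p: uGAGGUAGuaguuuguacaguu

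The 3′ UTRs of GENCODE M21 transcripts were searched on the sense strand for CTACCTC, which pairs with the 7 seed bases, and for CTACCTCA, the 8-base form that contains it. All 7 genes held CTACCTC, against 9.02% of 20990 genes with a 3′ UTR, and all but *Hmga1* held CTACCTCA, against 3.06%. These genes are textbook let-7 targets, so the matches describe what the group shares and are not independent evidence. The match nearest the stop codon is printed for each gene, 5′ to 3′ in a window of 22 bases on the sense strand, with the match in capitals.

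*Igf2bp1*, minus strand of GRCm38 chr11:95961778-95961799: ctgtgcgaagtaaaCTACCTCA

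*Igf2bp2*, minus strand of GRCm38 chr16:22059473-22059494: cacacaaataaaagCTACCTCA

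*Igf2bp3*, minus strand of GRCm38 chr6:49086787-49086808: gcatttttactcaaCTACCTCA

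*Lin28a*, minus strand of GRCm38 chr4:134005189-134005210: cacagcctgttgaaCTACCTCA

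*Lin28b*, minus strand of GRCm38 chr10:45381022-45381043: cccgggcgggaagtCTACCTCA

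*Hmga1*, plus strand of GRCm38 chr17:27563278-27563299: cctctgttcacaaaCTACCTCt

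*Hmga2*, minus strand of GRCm38 chr10:120364224-120364245: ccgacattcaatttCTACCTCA

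The genes differed in how many matches they held. *Igf2bp1*, *Lin28b* and *Hmga2* each had 4 matches of either length, and 3 of the 4 in *Igf2bp1* were of 8 bases. Among the 500 genes nearest to it in 3′ UTR length, 0.2% had as many as *Igf2bp1*, 0.4% as many as *Lin28b* and 0% as many as *Hmga2*. *Lin28a* had 2 matches, both of 8 bases, and 2.2% of genes of like length had as many. *Igf2bp2*, *Igf2bp3* and *Hmga1* had 1 match each, which 11.2%, 13.8% and 9% of genes of like length also reached. A match is a string of letters and does not show that let-7 acted on it in these samples. The let-7 RNAs were not measured here.

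**Figure D1:**
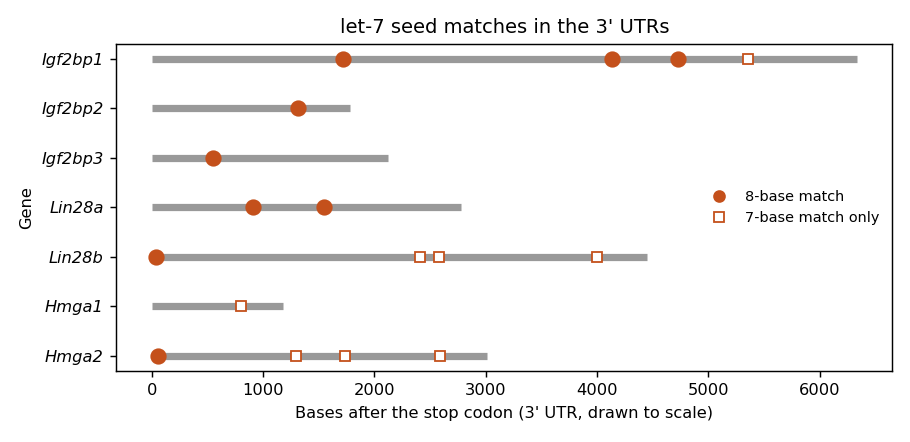
Positions of let-7 seed matches in the 3′ UTR of each gene (grey bars, drawn to scale in bases after the stop codon; filled circles, 8-base matches; open squares, matches of 7 bases only). All 7 genes carry at least 1 match, and *Igf2bp1*, *Lin28b* and *Hmga2* carry 4 each.

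In the untreated library *Hmga1* and *Igf2bp3* were abundant and the other 5 genes were scarce, and in the TSA library all 7 were scarce. Of the 5 genes with at least 20 counts over both libraries, 4 were lower and 1 was higher with TSA. A gene is called lower or higher at a ratio of at least 2-fold in library-scaled counts with an interval that excludes 1. Of all 13027 genes tested, 27.4% were lower and 26.0% were higher by that rule. With a count of 0 set to 3 counts, all 4 lower genes lay below the untreated level by a ratio of 10-fold or more, as did 5.50% of all genes tested, and 3 of them by 40-fold or more, as did 1.86%. *Igf2bp1*, *Igf2bp3* and *Lin28b* reached the count minimum through the untreated library alone, and *Igf2bp2* through the TSA library alone, in each case the library where the gene is high, so these counts describe the genes and support nothing further. Fewer cells of a type and less RNA per cell cannot be told apart in bulk liver.

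**Figure D2:**
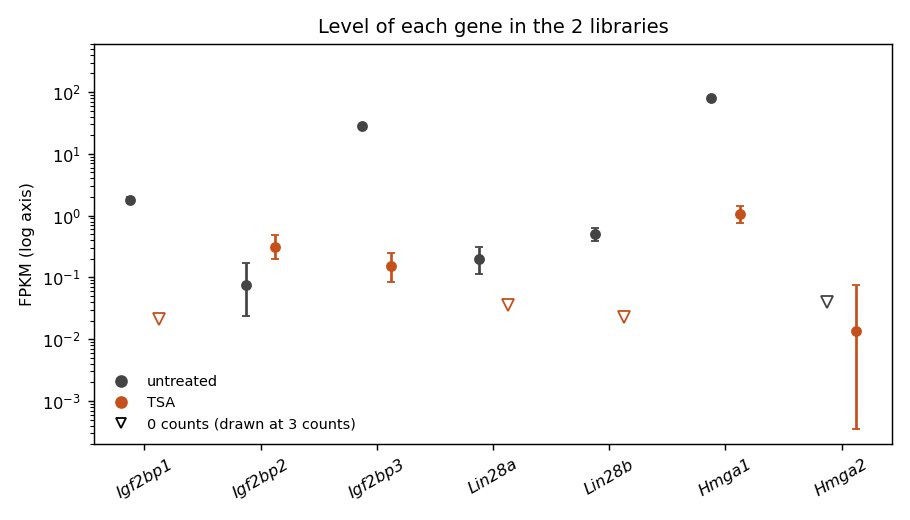
Level of each gene as FPKM (log axis) in the untreated (grey) and TSA (orange) libraries, with exact Poisson 95% intervals of the counts as bars; open triangles mark 0 counts, drawn at the level of 3 counts. The largest drops among genes detected in both libraries are those of *Igf2bp3* and *Hmga1*, and *Igf2bp2* alone has its higher point in the TSA library among genes with at least 20 counts.

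The IGF2BP family was led by *Igf2bp3* without treatment. *Igf2bp3*, the paralog best known as an oncofetal marker of carcinomas, had 2782 counts (28.1 FPKM, interval 27.1 to 29.2) in the untreated library and 15 counts (0.153 FPKM, 0.0858 to 0.253) in the TSA library. It went from percentile 81.8 to percentile 16.2 of detected genes by FPKM. The ratio was 102-fold (61.5 to 182) lower with TSA, and 183-fold lower when libraries were scaled by total counts. With a count of 0 set to 3 counts, 0.537% of the genes tested had a smaller ratio. A gene with 0 counts with TSA has only an upper limit on its ratio, so that share could be larger.

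*Igf2bp1*, which carries mRNAs such as that of beta-actin and shields them from decay, stood at 259 counts (1.79 FPKM, 1.58 to 2.02) in the untreated library and at 0 counts with TSA. Against a limit of 3 counts for a count of 0, or 0.0209 FPKM, *Igf2bp1* was at least 47.3-fold lower. That limit is 1-sided, and the 2-sided exact interval used for genes with counts in both libraries reaches 3.69 counts, which lowers the bound to 38.2-fold for *Igf2bp1* and to 9.83-fold for *Lin28b*. Among the 11046 genes tested with at least 50 counts in the untreated library, 50 genes (0.453%) had 0 counts with TSA, and *Igf2bp1* and *Lin28b* were among them.

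*Igf2bp2*, the paralog with the widest expression in adult tissues, stood on the other side. Its 5 counts in the untreated library (0.0742 FPKM, 0.0241 to 0.173) compare with 21 counts in the TSA library (0.315 FPKM, 0.195 to 0.482). The TSA level was 7.67-fold (2.81 to 26.0) above the untreated one, or 4.25-fold by total counts. Both levels were low, at percentiles 10.5 and 22.0 of detected genes, and the call rests on 26 counts in all.

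The makeup of the family therefore differed between the libraries, which is a measure that no library scaling moves. *Igf2bp3* made up 91.3% (exact binomial interval 90.3 to 92.3) of 3046 family counts without treatment and 41.7% (25.5 to 59.2) of 36 family counts with TSA. *Igf2bp2* made up 0.164% (0.0533 to 0.383) without treatment and 58.3% (40.8 to 74.5) with TSA. *Igf2bp1* made up 8.50% (7.54 to 9.55) without treatment and 0% (0 to 9.74) with TSA. Summed over the family, counts were 46.4-fold (33.4 to 66.3) lower with TSA. No window of 50 bases is shared between transcripts of these 3 paralogs in GENCODE M21.

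**Figure D3:**
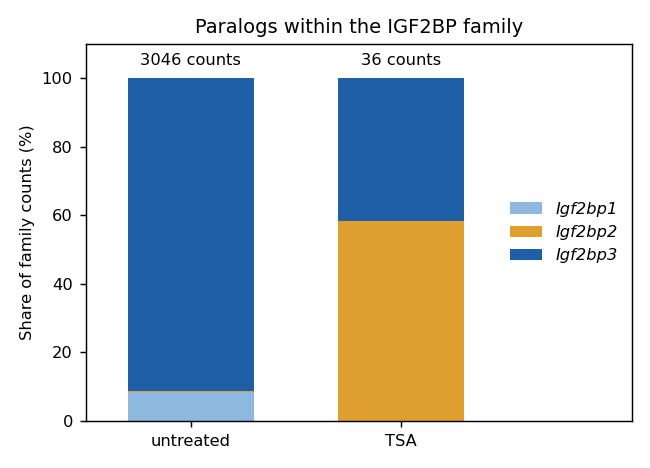
Share of each paralog in the counts of the IGF2BP family (percent, stacked bars from 0) in the untreated library (3046 counts) and the TSA library (36 counts). *Igf2bp3* fills 91.3% of the untreated bar, and *Igf2bp2* takes 58.3% of the TSA bar.

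The LIN28 genes were detected without treatment and not with TSA. *Lin28b*, which holds let-7 precursors in the nucleus and is a known marker of fetal blood and liver cells, had 68 counts (0.504 FPKM, 0.391 to 0.638) in the untreated library and 0 in the TSA library. Against the 1-sided limit of 3 counts it was at least 12.4-fold lower, or 9.83-fold by the 2-sided interval. *Lin28a*, the paralog best known from embryonic stem cells, had 17 counts (0.197 FPKM, 0.115 to 0.316) and 0 counts, under the minimum of 20, and was not tested. *Lin28b* made up 80% (69.9 to 87.9) of the 85 LIN28 counts without treatment. Per gene model length its share was 71.8%. Even in the untreated library both genes were scarce, at percentiles 24.0 (*Lin28b*) and 17.1 (*Lin28a*) of detected genes.

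The HMGA genes split into an abundant one and one with at most 1 count in either library. *Hmga1*, whose product loosens chromatin in dividing cells, stood at 3001 counts (80.4 FPKM, 77.5 to 83.3) in the untreated library and at 39 counts (1.06 FPKM, 0.751 to 1.44) in the TSA library. The ratio was thus 42.2-fold (30.8 to 59.4) lower, or 76.1-fold by total counts, and *Hmga1* moved from percentile 93.7 to percentile 34.2 of detected genes. *Hmga2*, the fetal growth gene behind the pygmy mouse, had 0 counts without treatment and 1 count with TSA, both within the limit of 3 counts. In the untreated library 3 counts would be 0.0405 FPKM, and the 2-sided interval of its level reaches 0.0498 FPKM. The level of *Hmga1* is uncertain, because the treatment of reads that match more than 1 locus is not known here.

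**Figure D4:**
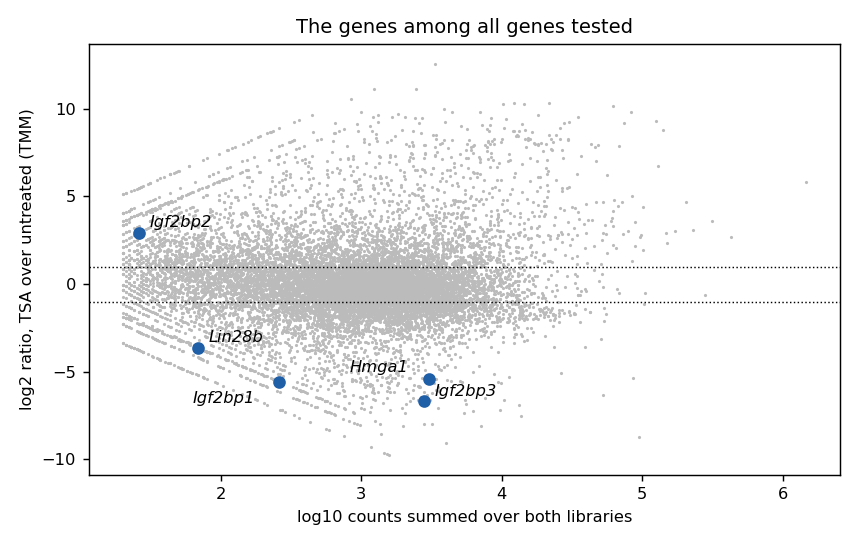
Log2 ratio of TSA over untreated (TMM-scaled counts) against the log10 of summed counts for all 13027 genes tested (grey), with the 5 tested genes in blue and dotted lines at 2-fold. Genes with 0 counts in 1 library are drawn at the limit of 3 counts; *Igf2bp3* lies at -6.67 and *Igf2bp2* at 2.94.

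By level per gene model length, the order in the untreated library was *Hmga1*, *Igf2bp3*, *Igf2bp1*, *Lin28b*, *Lin28a*, *Igf2bp2* and *Hmga2*. The intervals of *Lin28a* and *Igf2bp2* overlapped, as did those of *Igf2bp2* and *Hmga2*, while the neighbours above them were apart. *Hmga1* was 2.86-fold above *Igf2bp3*, and *Igf2bp3* was 15.7-fold above *Igf2bp1*. With TSA the order began with *Hmga1*, *Igf2bp2* and *Igf2bp3*, and *Igf2bp2* and *Igf2bp3* had overlapping intervals. The remaining 4 genes had 0 counts or 1 count.

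Promoters were examined for the E-box CACGTG, the palindromic sequence that MYC and MAX bind, because the model is driven by c-Myc. The RefSeq table (GRCm38.p6, 250 bases before to 50 bases after a start) held promoters of 6 of the 7 genes, *Igf2bp1* being the exception. CACGTG occurred in those of *Igf2bp3* and *Lin28b* and not in those of *Igf2bp2*, *Lin28a*, *Hmga1* or *Hmga2*. Counted by gene, 8.09% of the 27025 genes held there had it, and counted by promoter, 7.15% of all 32851 promoters of the same length. *Igf2bp3* had 2 copies, at positions -23 and 5 from the start, as 0.594% of promoters did with at least 2, and *Lin28b* had 1 at position -49. The 250 bases upstream of each start are printed with the E-box in capitals.

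*Igf2bp3*, minus strand of GRCm38.p6 chr6:49214955-49215204: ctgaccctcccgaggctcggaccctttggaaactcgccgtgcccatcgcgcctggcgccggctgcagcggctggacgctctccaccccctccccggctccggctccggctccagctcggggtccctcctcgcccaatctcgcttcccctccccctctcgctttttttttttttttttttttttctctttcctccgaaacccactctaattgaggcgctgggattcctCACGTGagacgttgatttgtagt

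*Lin28b*, minus strand of GRCm38.p6 chr10:45470202-45470451: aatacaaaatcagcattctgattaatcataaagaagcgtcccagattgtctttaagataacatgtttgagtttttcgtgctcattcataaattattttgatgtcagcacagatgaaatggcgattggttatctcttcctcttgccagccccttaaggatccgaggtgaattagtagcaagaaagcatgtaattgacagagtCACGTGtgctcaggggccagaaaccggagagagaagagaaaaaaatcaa

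These letters describe the windows and do not show binding. *Myc* itself, counted at the mouse gene, had 55 counts without treatment and 763 with TSA, and was 25.3-fold (19.2 to 33.9) higher. Whether those counts include reads of the injected c-Myc is not known here. A link between *Myc* and the genes with an E-box was not tested.

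The machinery that makes and destroys let-7 was lower in part. Of 16 genes for let-7 processing and decay, 8 were lower, 2 higher and 6 neither, where 27.4% of all genes tested were lower and 26.0% higher. Their median log2 ratio was -1.04 against -0.11 for all genes tested. With total counts 12 were lower and 2 higher, where 48.7% of all genes were lower and 16.0% higher. *Drosha*, for the nuclease that cuts microRNA precursors out of primary transcripts, had 2337 and 226 counts and was 5.67-fold (4.94 to 6.52) lower. *Syncrip*, for an RNA-binding protein, was 2.46-fold (2.31 to 2.62) lower. *Trim25*, a cofactor of LIN28A, was 1.87-fold below the untreated level and was called only with total counts. *Ago4*, for an Argonaute protein, was 5.55-fold (3.46 to 9.21) higher with few counts, 24 and 73. The uridylyl transferases that act with LIN28 on let-7 precursors, named after their values were seen, did not move together. *Zcchc6* (TUT7) was 3.80-fold (3.50 to 4.13) higher and *Zcchc11* (TUT4) 1.98-fold below the untreated level, which was called only with total counts.

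Of 18 further let-7 targets 9 were lower (13 with total counts), 1 was higher and 8 were neither. All genes tested were lower in 27.4% of cases (48.7% with total counts) and higher in 26.0%. The 18 targets had a median log2 ratio of -0.81, and 13 of their 18 3′ UTRs held CTACCTC, against 9.02% of 20990 genes with a 3′ UTR. They were listed as let-7 targets, so that count is not independent evidence. The widest differences in this list were those of *Trim71* and *Arid3a*. *Trim71*, for a ubiquitin ligase and RNA-binding protein of early embryos, had 502 counts without treatment and 0 with TSA, and was at least 91.7-fold lower against 3 counts, or 74.3-fold by the 2-sided interval. *Arid3a*, for a DNA-binding protein of fetal liver and B cells, had 2514 and 25 counts and was 55.1-fold (37.2 to 85.3) lower. *Cdc34*, for a ubiquitin-conjugating enzyme of the cell cycle, differed less, at 2.47-fold (2.28 to 2.67) lower. Among all 1327 genes tested whose 3′ UTR held CTACCTC, 28.2% were lower and 24.6% higher, against 27.3% and 26.1% of the 12566 genes tested with a 3′ UTR. The 3′ UTRs of the 1327 genes had a median length of 2385 bases, against 1163.5 for the 12566. All 5 tested genes carry CTACCTC, so its presence could not separate *Igf2bp2*, which was higher, from the 4 that were lower. The part of let-7 in these differences was not tested.

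Partners of IGF2BP proteins in ribonucleoprotein granules were lower in 9 of 12 cases (10 with total counts), with 1 higher and a median log2 ratio of -1.30. All genes tested were lower in 27.4% and higher in 26.0% of cases, or 48.7% and 16.0% with total counts. *Pabpc1*, for the poly(A)-binding protein, was 4.48-fold (4.34 to 4.64) lower, *Hnrnpu* 3.38-fold (3.26 to 3.51) lower and the stress granule gene *G3bp1* 4.99-fold (4.70 to 5.29) lower. *Cpeb1*, for a cytoplasmic polyadenylation factor, was the higher one, at 6.69-fold (3.73 to 12.8), with 15 and 55 counts. The mRNAs known to be bound by IGF2BP proteins showed no common direction, with 2 of 7 lower and 3 higher. *Igf2*, for the fetal growth factor that gives the family its name, had 85126 and 1123 counts and was 41.5-fold (39.2 to 44.1) lower, whereas *Actb*, for beta-actin, was 1.54-fold below the untreated level and not called, and *Myc* was higher. With total counts 4 of these 7 were lower and 1 was higher. Of 15 genes of m6A methylation, the mark that IGF2BP proteins read, 3 were lower and none higher with TMM, where 27.4% of all genes were lower. With total counts 14 were lower, where 48.7% of all genes were lower. *Mettl14*, for a subunit of the methyltransferase, was 2.65-fold (2.11 to 3.37) lower, *Cbll1* 2.30-fold (1.88 to 2.82) lower, and *Alkbh5*, for a demethylase, and *Ythdf3*, for a reader, lay at 1.24-fold and 1.08-fold of difference and were not called.

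The PLAG genes stand between HMGA2 and *Igf2* in growth control. *Plag1*, an activator of *Igf2*, had 57 and 3 counts and was 10.4-fold (3.39 to 52.0) lower, and *Plagl2*, its paralog, was 8.74-fold (7.19 to 10.7) lower. *Hmga2* itself had 0 counts in the untreated library. Of these 4 genes, *Igf2* included, 3 were lower and 1 was higher, the paralog *Plagl1* by 2.90-fold (1.66 to 5.20), named after its value was seen and not called with total counts. The shares of all genes tested were 27.4% lower and 26.0% higher, or 48.7% and 16.0% with total counts. *Igf2* and *Plagl2* are also counted in other lists here.

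Relatives of the 7 genes by protein domain differed by at most 15.8-fold among those tested. Beside the counts that follow, 27.4% of all genes tested were lower and 26.0% higher, or 48.7% and 16.0% with total counts. Of 10 other high mobility group genes tested 6 were lower and none higher (9 lower with total counts), with a median log2 ratio of -1.32. *Hmgb2*, of dividing cells, was 15.8-fold (12.8 to 19.9) lower, *Hmgn2* 8.54-fold (7.13 to 10.3) lower and *Hmgn1* 3.24-fold (3.04 to 3.45) lower. Of 14 other KH domain genes 10 were lower (12 with total counts) and 1 higher (median -1.20), from *Hnrnpk* at 2.08-fold (2.01 to 2.17) and *Pcbp1* at 2.37-fold (2.27 to 2.48) to *Fubp1* at 8.22-fold (7.34 to 9.24) and *Pcbp4* at 13.2-fold (11.2 to 15.6) lower. Of 5 cold shock domain genes 2 were lower (4 with total counts) and none higher, *Ybx3* by 9.70-fold (8.89 to 10.6) and *Ybx1* by 3.51-fold (3.38 to 3.66).

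**Figure D5:**
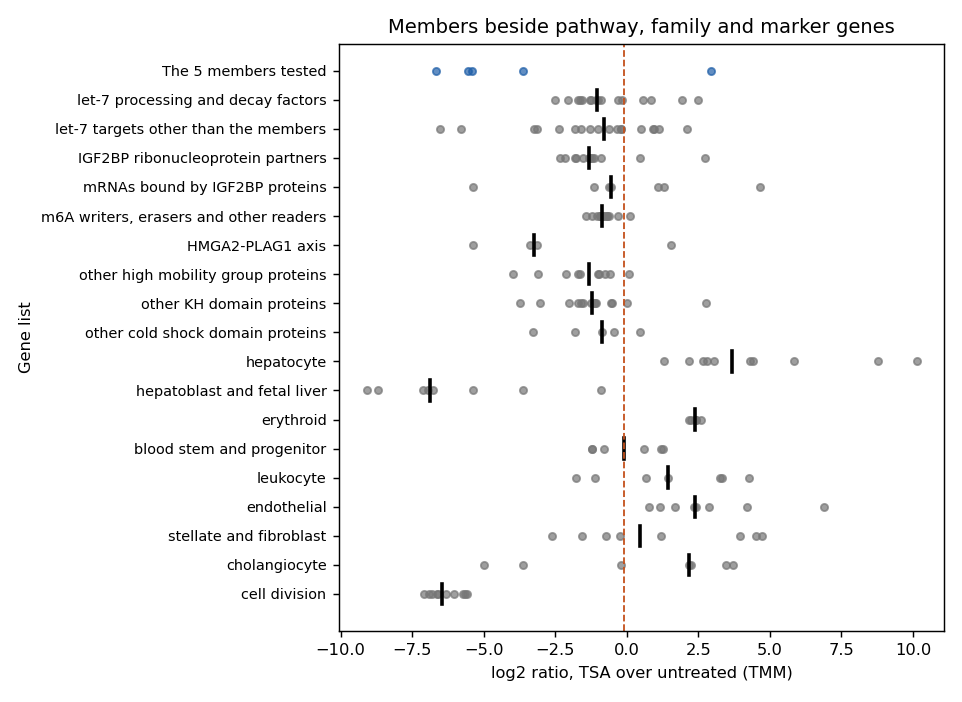
Log2 ratio of TSA over untreated (TMM) for the 5 tested genes (blue) and for each tested gene of the pathway, family and marker lists (grey points; black bars, list medians; dashed line, median of all genes tested). Of the 5 blue points 4 lie between -6.67 and -3.63, and *Igf2bp2* lies at 2.94. *Igf2bp1* and *Lin28b*, not detected with TSA, are drawn at the limit of 3 counts.

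Markers of several cell types moved beside the 7 genes, and their part in the result was not tested. The shares among all genes tested were 27.4% lower and 26.0% higher, or 48.7% and 16.0% with total counts. All 10 hepatocyte markers were detected in both libraries and were higher with TSA (9 with total counts), with a summed level of 7066 CPM without treatment and 165975 CPM with TSA; *Alb* was 57.1-fold (56.6 to 57.6) and *Tat* 1129-fold (928 to 1387) higher. All 10 cell division markers were lower, with a summed level of 1932 CPM and 26.6 CPM, *Top2a* by 99.2-fold (76.5 to 131) and *Mki67* by 47.6-fold (39.3 to 58.1). Of 8 hepatoblast and fetal liver markers 7 were lower, with a summed level of 8013 CPM and 103 CPM; 3 of them, *Dlk1*, *Sall4* and *Spink1*, named after their values were seen, had 678, 758 and 597 counts without treatment and 0 with TSA. *Afp* was 413-fold (347 to 497) and *Peg10* 545-fold (212 to 1999) lower.

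Of 8 pluripotent and germ cell markers 6 had 0 counts without treatment and 7 had 0 with TSA, *Pou5f1* and *Nanog* at 0 in both. The markers detected without treatment, *Utf1* and *Dazl*, named after their values were seen, had 2 counts each. Of 6 blood stem and progenitor markers tested 2 were lower and 2 higher, with a summed level of 88.9 CPM and 116 CPM. With total counts 3 were lower and none higher, and the summed level went the other way, 119 and 86.7 CPM of total counts. Of these *Kit* was 2.33-fold (1.94 to 2.81) lower and *Hlf* 2.27-fold (2.08 to 2.48) higher, or 1.26-fold and not called with total counts. *Hlf* had the most counts of this list, 924 and 1151, and weighs most in its sums. The next most counted, *Kit* (607 and 143 counts) and *Cd34* (329 and 77), were the lower ones, so the higher sum with TMM rests on *Hlf*. All 6 erythroid markers tested were higher, with a summed level of 70.9 CPM and 359 CPM, *Hba-a1* by 5.38-fold (4.92 to 5.89). Summed levels without treatment and with TSA were 402 and 236 CPM for leukocyte, 112 and 615 CPM for endothelial, 423 and 584 CPM for stellate and fibroblast, and 79.3 and 79.0 CPM for cholangiocyte markers. Of these lists 4 of 7, 7 of 8, 4 of 8 and 4 of 7 tested genes were higher, and 2, 0, 2 and 2 were lower. With total counts 3, 5, 3 and 3 were higher and 2, 0, 4 and 3 lower, and the summed level of stellate and fibroblast markers went the other way, 569 and 435 CPM of total counts. Among all genes tested 27.4% were lower and 26.0% higher, or 48.7% and 16.0% with total counts. A summed level follows the most counted genes of its list, such as *Lyz2* among leukocyte markers, with 6956 and 1764 counts. The near-equal cholangiocyte sums hold *Krt7*, 31.6-fold (17.1 to 66.3) lower, and *Spp1*, 13.1-fold (10.3 to 16.9) higher.

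The genes nearest to each of the 5 tested genes by log2(FPKM + 0.1) in the 2 libraries were listed as a likeness over 2 values. Nearest to *Igf2bp3* were *Mybl2*, for a cell cycle transcription factor (30.7 and 0.170 FPKM), and *Ccnb1ip1* (28.7 and 0.194 FPKM). Nearest to *Hmga1* were *Cdca8*, for a subunit of the chromosomal passenger complex (63.3 and 1.08 FPKM), and *Cdkn1c*, an imprinted cell cycle inhibitor gene (96.9 and 1.26 FPKM). Nearest to *Igf2bp1* were *Awat1* and *Uchl1*, with 43 and 35 counts without treatment and 0 with TSA, and nearest to *Lin28b* were *Ccdc40* and LOC108167333, with 44 and 21 counts and 0. Nearest to *Igf2bp2* were *Pnldc1* and *Plxna4*, with 5 and 15 counts without treatment and 22 and 70 with TSA. Many genes share so coarse a pattern.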

How the data were processed

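The deposited counts give unscaled reads for each gene symbol, per the file headers and values. The FPKM deposited by the authors derive from these counts, each gene's length and the library total: 14271 genes had counts in both libraries, and each gave 1 length, equal to within 0.1 base. The submitters' processing notes name Trimmomatic, HISAT2, Bowtie2 and DESeq without roles; neither build nor counting tool is stated there. Totals were 17281523 (untreated) and 17088227 (TSA) counts.

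Libraries were scaled by TMM (edgeR 4.0.16, R 4.3.3; factors 1.34 and 0.744), and CPM uses these sizes. Total counts move every log2 ratio by -0.85; DESeq2 1.42.0 size factors, upper quartiles, FPKM, other count minimums, thresholds and floors were also run. Genes with at least 20 summed counts were tested. Ratios, TSA over untreated, have exact conditional binomial (Clopper-Pearson) intervals, and levels exact Poisson ones; reads are not independent molecules. A count of 0 was set to 3 counts, in list medians too. On simulated Poisson counts of 12964 genes, 98 of 100 genes changed 3-fold and 100 of 100 changed 8-fold were called correctly, and 34 of 12764 unchanged genes were called. These counts held counting error only, as the intervals assume. The simulation checks the code and does not give the accuracy of the calls between animals.

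The 7 genes and the lists were chosen with earlier results of these data known. All 7 are named; in each list the rule takes genes of 50 or more summed counts, the 2 most counted and the 2 most changed, and values are printed for part of the marker genes it selects; the 2 genes nearest each tested gene are also named. *Syncrip*, *Khsrp*, *Fmr1*, *Ybx1*, *Igf2*, *Plagl2* and *Epcam* stand in more than 1 list. Some list genes were matched through older symbols. A few genes that were analysed are not reported here.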

Additional observations from a re-analysis of the deposited data

How the results depend on the processing

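Directions of the 5 tested genes held in the 27 alternative values that differed from the reported ones; other thresholds and count minimums leave a ratio as it is by construction. Scaling by total counts gave log2 ratios of -7.52 for *Igf2bp3* and -6.25 for *Hmga1*. The FPKM are scaled by library totals, and adding a constant pulls low levels together by construction. With 0.1 added they gave -4.24 for *Igf2bp1*, 1.25 for *Igf2bp2*, -2.59 for *Lin28b* and -6.12 for *Hmga1*, the last near its total-count value. With 1 added the values were -1.48 for *Igf2bp1*, 0.29 for *Igf2bp2*, -4.66 for *Igf2bp3* and -0.59 for *Lin28b*, and *Igf2bp2* and *Lin28b* were no longer past 2-fold. The number of genes called higher was then 0, as it was with a minimum of 100 counts, which leaves *Igf2bp2* and *Lin28b* untested. By FPKM in place of counts the untreated family shares were 5.97% for *Igf2bp1* and 93.8% for *Igf2bp3*. No paired analysis was possible because each group holds 1 library. Depth limits *Lin28a*, *Hmga2* and, at 26 counts, *Igf2bp2*.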
